A study of Mus musculus with 8 samples.

Results

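The 10 transcription factors described here pattern the midbrain, the hindbrain and neighbouring tissue, and were followed in mouse neural progenitor cultures in which Bcl6 had been induced. They were taken from the table by gene symbol: Lmx1a, Lmx1b, En1, En2, Gbx2, Pax2, Pax5, Pax8, Pax7 and Irx3. All 10 had a row in the deposited table of 14954 genes. The cultures came from A2lox.Cre Bcl6 mouse embryonic stem cells, 1 engineered line in which tetracycline or doxycycline switches on a Bcl6 transgene. In both groups differentiation took place in defined medium, to which 400 ng/ml of the hedgehog inhibitor cyclopamine was added from day 2, and the plain medium was restored after 10 days. At day 12 the Bcl6-induced group had had 1 µg/ml doxycycline for 24 h and the control group DMSO. There were 4 libraries in each group, numbered as differentiations 1 to 4 in both. The samples include no doxycycline-treated cells lacking the transgene, and the effects of Bcl6 and of doxycycline cannot be told apart. Whether the 4 differentiations of a group were independent is not stated, and p-values cover only the spread among these libraries, which may be technical.

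The boundary between midbrain and hindbrain, the isthmus, is a signalling centre of the early neural tube that secretes Wnt1 and Fgf8. It forms where Otx2, expressed in front, meets Gbx2, expressed behind, and it is held in place by a network of transcription factors that keep each other active. Pax2, Pax5, En1, En2 and Lmx1b belong to this network. Lmx1a and Lmx1b also specify midbrain dopaminergic neurons, Pax7 marks dorsal midbrain and dorsal neural tube, and Irx3 marks neural tube behind the anterior forebrain. The induced factor, Bcl6, is a zinc-finger repressor of transcription needed for germinal centres.

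The libraries held 10.3 M to 15.0 M reads in the induced group and 9.42 M to 9.74 M in the control group, so every control was shallower. Bcl6 itself stood at 325 to 427 CPM (the value as a share of its library's total, on the usual scale) in the induced libraries and 6.01 to 7.12 CPM in the controls. Control 1 stood apart from the other libraries: across 11856 genes, the Spearman rho between its deviation from its group mean and transcript length was -0.73, against 0.18 to 0.52 in the other controls and -0.31 to 0.25 in the induced libraries. Each group mean includes the library itself, so the positive values of the other controls are tied to the negative value of control 1. The label calls the cells cortical progenitors. Sox2, a factor of neural progenitors generally, was present at 255.3 ± 15.5 CPM in the induced and 257.1 ± 22.3 CPM in the control libraries (SD, n = 4 each). Pou5f1, which marks pluripotent cells, was present at 443.4 ± 42.0 CPM in the induced and 538.2 ± 65.7 CPM in the control libraries. Of 7 forebrain genes in the table, Lhx2 rose and the others did not pass the test. Fewer cells of a type and less RNA per cell cannot be told apart in such bulk samples.

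Of the 10 factors, Lmx1b rose and Irx3 fell after induction, and the other 8 did not pass the test. Lmx1b was 1.79 times its control level and Irx3 0.44 times. The test was limma on log2(value + 1), with Benjamini-Hochberg adjustment over all 14954 genes and a threshold of 0.05 on the adjusted p. It called 6.81% of all genes (4.55% higher and 2.26% lower), or 1019 genes. The libraries of the 2 groups did not overlap for 4 of the 10 factors (Lmx1b, En2, Pax2 and Irx3), against 17.1% of all genes. Lmx1b and Pax2 lay higher in this way, as did 10.8% of all genes, and En2 and Irx3 lower, as did 6.32%. The median log2 fold change was -0.18 over the 10 factors and 0.03 over all genes. The number of genes called was set in part by single libraries: 308, 350 and 649 when induced library 1, 2 or 3 was left out, 1697 when control 1 was, and 359 when control 2 was. The balance of calls also moved with the scaling, from 681 higher and 338 lower as deposited to 536 and 424 with median-of-ratios scaling and 501 and 474 with upper quartile scaling.

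**Figure D1:**
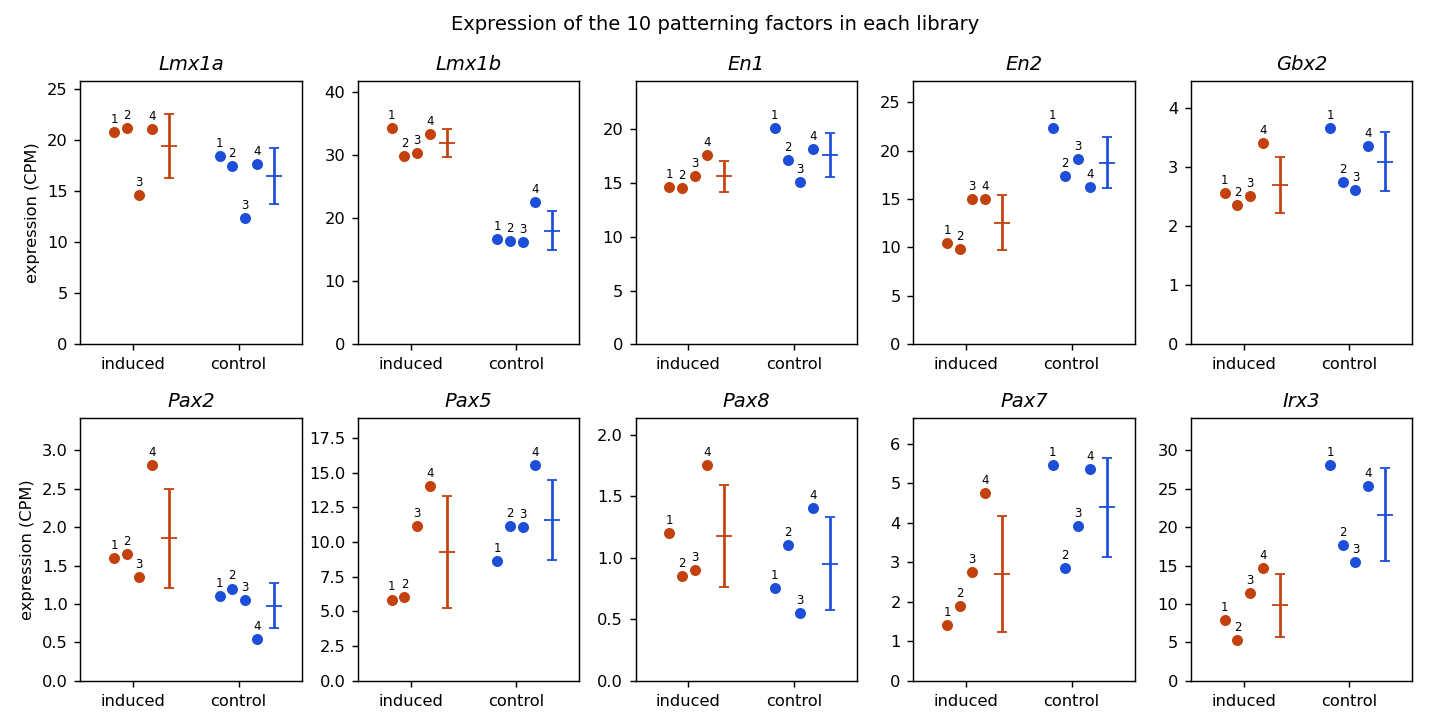
Expression in CPM of each of the 10 factors, with 1 point per library (labelled by differentiation number), induced on the left and control on the right, and the mean with SD beside each group (n = 4). The groups are apart for Lmx1b, En2, Pax2 and Irx3, and Lmx1b in the induced libraries lies at 29.8 to 34.2 CPM, above all controls.

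The LIM-homeodomain factors Lmx1a and Lmx1b are close relatives with shared and separate roles. Lmx1b maintains isthmic Fgf8 and Wnt1 expression, directs the serotonergic fate in the hindbrain and patterns the dorsal limb. Lmx1b (ENSMUSG00000038765, chromosome 2, 33560965 to 33640511, minus strand, mm10) had 34.2, 29.8, 30.3 and 33.2 CPM in induced libraries 1 to 4, against 16.7, 16.4, 16.3 and 22.6 CPM in controls 1 to 4. Every induced library was above every control, and control 4 was the highest control. The means were 31.9 ± 2.15 CPM in the induced and 17.97 ± 3.06 CPM in the control libraries (SD, n = 4 each), which differed by 0.84 ± 0.12 on the log2 scale (SE; limma adjusted p = 0.0035). The call held in all 18 alternative analyses, among them each of 8 that left out 1 library (adjusted p between 0.0020 and 0.021).

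Lmx1a, which acts with Lmx1b in the midbrain floor plate and also in the roof plate, lies on chromosome 1 (167689237 to 167848741, plus strand). It had 20.8, 21.1, 14.6 and 21.002 CPM in induced libraries 1 to 4, against 18.4, 17.4, 12.3 and 17.6 CPM in controls 1 to 4. The groups overlapped, and in both groups the library of differentiation 3 was the lowest. Its log2 fold change of 0.24 (95% interval -0.12 to 0.59) did not pass the test (limma adjusted p = 0.40). Within a library, where scaling cancels, the log2 ratio of Lmx1b to Lmx1a averaged 0.73 ± 0.23 in the induced and 0.13 ± 0.28 in the control libraries (SD, n = 4 each). That ratio was higher in every induced library than in any control (two-sided exact permutation p = 0.029, the smallest that 4 against 4 libraries allow). Adjusted over the 5 ratios compared among related factors, p was 0.095. A single ratio at the smallest p could not pass after that adjustment, so missing the threshold says little about the ratio of Lmx1b to Lmx1a. The other ratios had an exact permutation p of 0.057 or more before adjustment. The 5 ratios were chosen after the values were seen, so this p is no separate support for the rise of Lmx1b.

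Upstream of Lmx1b lies C130021I20Rik, a long non-coding RNA transcribed from the opposite strand (chromosome 2, 33641193 to 33646354, plus strand). Its exons do not overlap those of Lmx1b in GENCODE M21, and it starts 682 bp beyond the end of Lmx1b in that annotation and 95 bp beyond the RefSeq start of Lmx1b. C130021I20Rik had 32.2, 31.6, 24.3 and 28.3 CPM in induced libraries 1 to 4, against 16.6, 15.4, 14.8 and 19.2 CPM in controls 1 to 4. As for Lmx1b, the groups did not overlap and control 4 was the highest control. Its log2 fold change of 0.82 ± 0.12 (limma adjusted p = 0.0042) was close in size to that of Lmx1b and also held without any 1 library. The RefSeq promoter window of Lmx1b (GRCm38.p6, chr2:33641049-33641348, minus strand) covers 250 bases before to 50 bases after the start. It is shown because it holds the RefSeq start of Lmx1b and the GENCODE start of C130021I20Rik, which both rose. By GENCODE, Lmx1b starts at 33640511, outside this window. Capitals mark the 156 bases that lie within the annotated span of C130021I20Rik.
Lmx1b: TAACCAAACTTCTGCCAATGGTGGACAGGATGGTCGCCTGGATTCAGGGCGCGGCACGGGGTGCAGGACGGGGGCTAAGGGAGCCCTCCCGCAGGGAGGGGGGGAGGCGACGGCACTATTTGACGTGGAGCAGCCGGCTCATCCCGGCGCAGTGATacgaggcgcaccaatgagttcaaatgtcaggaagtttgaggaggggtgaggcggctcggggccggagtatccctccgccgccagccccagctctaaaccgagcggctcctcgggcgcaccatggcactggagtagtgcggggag
This window has a GC content of 65.7% and 24 CpG dinucleotides, against medians of 52.7% and 7 over all RefSeq promoter windows.

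Irx3 is an Iroquois homeodomain factor of the neural plate and, with Irx5, of the spinal cord and heart. Irx3 (ENSMUSG00000031734, chromosome 8, 91798525 to 91802067, minus strand) had 7.87, 5.36, 11.5 and 14.7 CPM in induced libraries 1 to 4, against 28.1, 17.7, 15.4 and 25.4 CPM in controls 1 to 4. Every induced library was below every control, but induced library 4 and control 3 were close. The means were 9.86 ± 4.11 CPM in the induced and 21.6 ± 6.03 CPM in the control libraries (SD, n = 4 each), a log2 difference of -1.19 ± 0.29 (SE; limma adjusted p = 0.037). This call was lost in 5 of the 8 analyses that left out 1 library. The limma adjusted p was 0.12, 0.091 and 0.053 without induced library 1, 2 or 3, and 0.083 and 0.079 without control 2 or 4. Fewer genes were also called over the whole table in each of those 5 analyses. The direction was the same in all 18 alternatives.

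The antisense transcript Irx3os (chromosome 8, 91800415 to 91807539, plus strand) overlaps exons of Irx3. The library kit kept strand, but whether reads were counted by strand is not given in the sources used here, so reads of the overlap may have been shared between them. Irx3os had 8 to 18 reads in the induced and 10 to 26 reads in the control libraries, far fewer than the 59 to 152 and 150 to 264 reads of Irx3. Its log2 fold change of -0.81 (95% interval -1.63 to 0.01) did not pass the test (limma adjusted p = 0.21). The same limit on strand applies to Gbx2, Pax5 and Pax8, whose exons also overlap those of opposite-strand transcripts. The transcripts overlapping Pax5 (Gm12462 and 5730488B01Rik) and Pax8 (Gm13415) had no row in the deposited table. The RefSeq promoter window of Irx3 (GRCm38.p6, chr8:91801605-91801904, minus strand) is shown for the member that fell, with the 50 bases from the RefSeq start on in capitals. The RefSeq start, 91801654, lies inside the GENCODE span of Irx3 given above, so by that annotation the whole window is within the gene.
Irx3: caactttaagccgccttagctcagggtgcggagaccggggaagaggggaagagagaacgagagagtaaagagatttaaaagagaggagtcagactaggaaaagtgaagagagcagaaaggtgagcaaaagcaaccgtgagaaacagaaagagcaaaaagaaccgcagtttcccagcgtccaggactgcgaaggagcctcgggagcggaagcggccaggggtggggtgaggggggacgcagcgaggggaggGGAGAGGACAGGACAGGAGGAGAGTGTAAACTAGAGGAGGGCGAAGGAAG
RefSeq windows were found for 9 of the 10 factors, 11 windows in all. They were searched on both strands for TTCCTNGAA, a sequence known to be bound by Bcl6, and for the looser TTCNNNGAA, which contains it. TTCCTNGAA was in none of the 11 windows and in 1.59% of all 32851 RefSeq windows. TTCNNNGAA was in 1 of the 3 windows of Pax2 and in 8.30% of all windows. These matches describe the letters of 300-base windows and say nothing of binding.

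**Figure D2:**
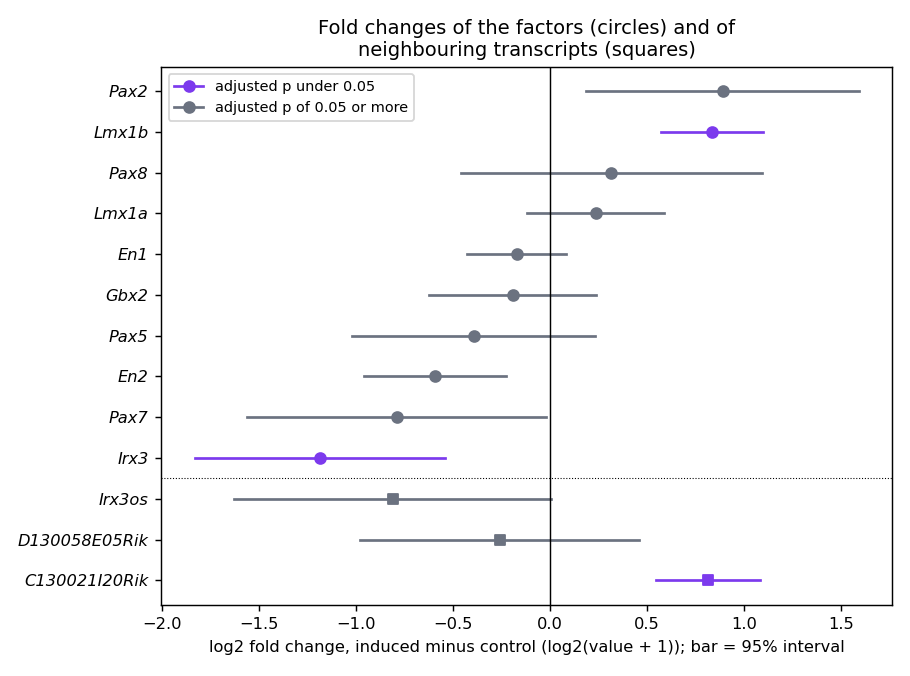
Log2 fold change, induced minus control, of the 10 factors (circles) and of 3 neighbouring transcripts in the table (squares), with 95% intervals from limma. Lmx1b at 0.84 and C130021I20Rik at 0.82 were called higher, and Irx3 at -1.19 was called lower.

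The engrailed factors En1 and En2 are homeodomain repressors expressed across the midbrain and anterior hindbrain. En2 (chromosome 5, 28165694 to 28172166, plus strand) had 10.4, 9.87, 15.0 and 15.0 CPM in induced libraries 1 to 4, against 22.3, 17.4, 19.1 and 16.2 CPM in controls 1 to 4. The groups did not overlap, with induced libraries 1 and 2 the furthest from the controls. The log2 fold change of -0.59 (95% interval -0.96 to -0.23) missed the threshold in the main analysis (limma adjusted p = 0.057). It passed in 5 of 10 alternatives that kept all libraries (adjusted p between 0.022 and 0.048) and in 1 of 8 that left out a library, that without induced library 4 (0.047). En1 (chromosome 1, 120602418 to 120607992, plus strand), the earlier of the 2 genes in the embryo, had 14.7, 14.5, 15.6 and 17.6 CPM in induced libraries 1 to 4, against 20.1, 17.2, 15.1 and 18.1 CPM in controls 1 to 4. The groups overlapped, and the log2 fold change was -0.17 (95% interval -0.43 to 0.09, limma adjusted p = 0.40), or -0.10 without control 1. The log2 ratio of En2 to En1 averaged -0.33 ± 0.23 in the induced and 0.09 ± 0.21 in the control libraries (SD, n = 4 each; exact permutation p = 0.057, adjusted p = 0.095 over the 5 ratios).

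Gbx2, the homeodomain factor of the hindbrain side, was low. It had 2.56, 2.35, 2.51 and 3.41 CPM in induced libraries 1 to 4, against 3.66, 2.75, 2.61 and 3.36 CPM in controls 1 to 4. Induced libraries 1 to 3 were below all controls, and induced library 4 was within their range. The log2 fold change of -0.19 (95% interval -0.62 to 0.24) did not pass the test (limma adjusted p = 0.59), and was -0.31 without induced library 4 and -0.11 without control 1. Gbx2 lies on chromosome 1 (89927956 to 89931179, minus strand), where its exons overlap those of the opposite-strand transcript D130058E05Rik. That transcript had 12 to 22 reads in the induced and 11 to 22 reads in the control libraries (limma adjusted p = 0.67).

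Pax2, Pax5 and Pax8 form 1 subfamily of paired-box factors. Pax2 and Pax5 act at the isthmus, Pax2 and Pax8 in the kidney and ear, Pax8 in the thyroid and Pax5 in the commitment of B cells. Pax2 (chromosome 19, 44756045 to 44837871, plus strand) had 1.603, 1.65, 1.35 and 2.81 CPM in induced libraries 1 to 4, against 1.10, 1.202, 1.05 and 0.55 CPM in controls 1 to 4. The groups did not overlap, but the values rested on 15 to 29 reads in the induced and 5 to 11 reads in the control libraries. Its log2 fold change of 0.89 (95% interval 0.19 to 1.59) did not pass the test (limma adjusted p = 0.12), and passed only with array weights (adjusted p = 0.047).

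Pax5 (chromosome 4, 44524757 to 44710487, minus strand) was the most abundant of the 3, with 5.86, 6.01, 11.2 and 14.03 CPM in induced libraries 1 to 4, against 8.62, 11.2, 11.1 and 15.5 CPM in controls 1 to 4. Induced libraries 1 and 2 were below all controls, while induced libraries 3 and 4 lay within their range. The log2 fold change of -0.39 (95% interval -1.02 to 0.23) did not pass the test (limma adjusted p = 0.43). It was -0.21, -0.22 and -0.63 without induced library 1, 2 or 4, -0.24 without control 4 and -0.77 with array weights, where it did not pass either (limma adjusted p = 0.074). Pax8 (chromosome 2, 24420560 to 24475599, minus strand) was the lowest of the 10 factors, at 9 to 18 reads in the induced and 5 to 13 reads in the control libraries. Its means of 1.18 ± 0.42 CPM in the induced and 0.95 ± 0.38 CPM in the control libraries (SD, n = 4 each) overlapped (log2 fold change 0.32, 95% interval -0.46 to 1.09, limma adjusted p = 0.63). That fold change was 0.11 without induced library 4, 0.097 and 0.52 without control 3 or 4, and 0.018 with array weights. The log2 ratio of Pax5 to Pax2 averaged 2.24 ± 0.55 in the induced and 3.53 ± 0.80 in the control libraries (SD, n = 4 each), with an exact permutation p of 0.057 and an adjusted p of 0.095 over the 5 ratios. For the ratios of Pax5 to Pax8 and of Pax2 to Pax8 the exact permutation p was 0.11 and 0.29, and the adjusted p 0.14 and 0.29.

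Pax7, a factor of the dorsal midbrain, the neural crest and muscle stem cells, lies on chromosome 4 (139737062 to 139833528, minus strand). It had 1.40, 1.90, 2.76 and 4.76 CPM in induced libraries 1 to 4, against 5.46, 2.86, 3.91 and 5.36 CPM in controls 1 to 4. Induced libraries 1 to 3 were below all controls, and induced library 4 was within their range. The log2 fold change of -0.79 (95% interval -1.56 to -0.02) did not pass the test over all genes (limma adjusted p = 0.20), on 21 to 49 reads in the induced and 27 to 51 reads in the control libraries.

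The induced libraries differed among themselves in the same way for several factors. Relative to the control mean, Irx3 stood at -1.41, -1.96, -0.87 and -0.51 (log2) in induced libraries 1 to 4. Pax7 stood at -1.57, -1.14, -0.62 and 0.16, and Pax5 at -0.95, -0.91, -0.02 and 0.31. Induced libraries 1 and 2 were thus below induced libraries 3 and 4 for Irx3, Pax7, Pax5, En2 and En1. Lmx1b did not show this order, with 0.94, 0.74, 0.77 and 0.90 in induced libraries 1 to 4. The order was not particular to the factors, since other neural genes had it too. Sox1 had 18.4, 18.4, 32.5 and 35.4 CPM in induced libraries 1 to 4, and Nes 153, 152, 217 and 235 CPM. Sox2 did not have it, with 264, 262, 264 and 232 CPM. Some pluripotency markers had the reverse, with induced libraries 1 and 2 above 3 and 4. Esrrb had 179, 184, 128 and 147 CPM in induced libraries 1 to 4, and Dppa5a 360, 394, 273 and 303 CPM. Pou5f1 had neither order, with 435, 483, 467 and 388 CPM. These are descriptions of 4 libraries with no test, and the Bcl6 level of induced libraries 1 to 4 was 393, 422, 427 and 325 CPM.

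**Figure D3:**
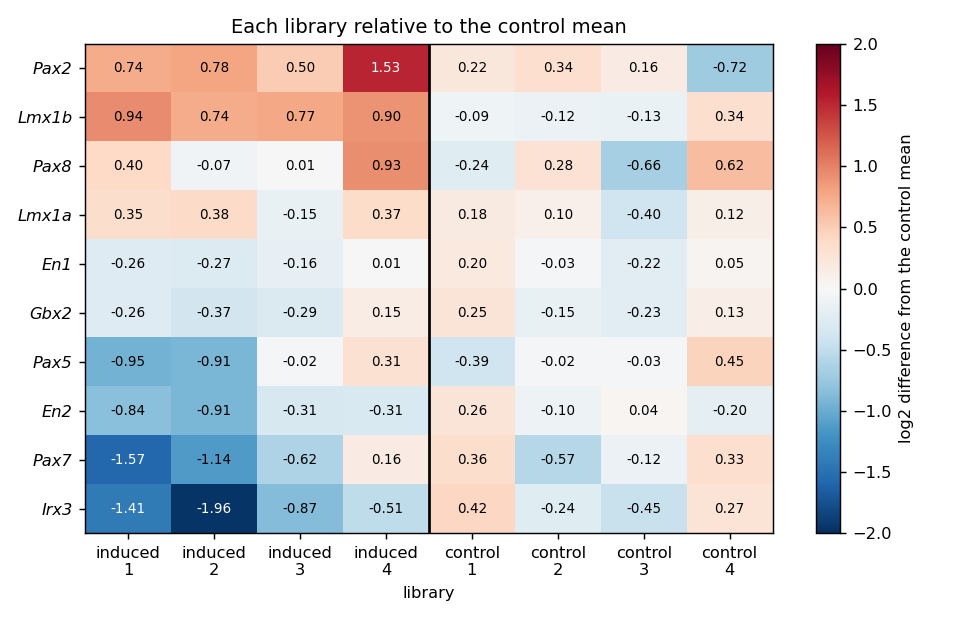
Difference of each library from the control mean on the log2(value + 1) scale, for the 10 factors (rows, ordered by fold change) in the 4 induced and 4 control libraries (columns). Irx3 is lowest in induced library 2 at -1.96, while Lmx1b lies between 0.74 and 0.94 in all 4 induced libraries.

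Levels can be compared between genes only per length, here as CPM per kb of exon. In the induced libraries the order of mean levels was Lmx1b (6.53), En1 (5.95), Lmx1a (5.71), Irx3 (3.57) and En2 (3.55), followed by Gbx2 (1.24), Pax5 (1.05), Pax7 (0.46), Pax2 (0.34) and Pax8 (0.19). In the control libraries it was Irx3 (7.83), En1 (6.72), En2 (5.30), Lmx1a (4.84) and Lmx1b (3.68), then Gbx2 (1.42), Pax5 (1.31), Pax7 (0.75), Pax2 (0.18) and Pax8 (0.16). Lmx1b was thus the first of the 10 in the induced and the fifth in the control libraries, and Irx3 the fourth and the first. Most neighbours in either order were not apart, since the ranges of their 4 libraries overlapped. The exceptions were En2 over Gbx2 in the induced libraries, and Lmx1b over Gbx2, Pax5 over Pax7 and Pax7 over Pax2 in the controls. The median over all annotated genes was 6.25 CPM per kb.

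**Figure D4:**
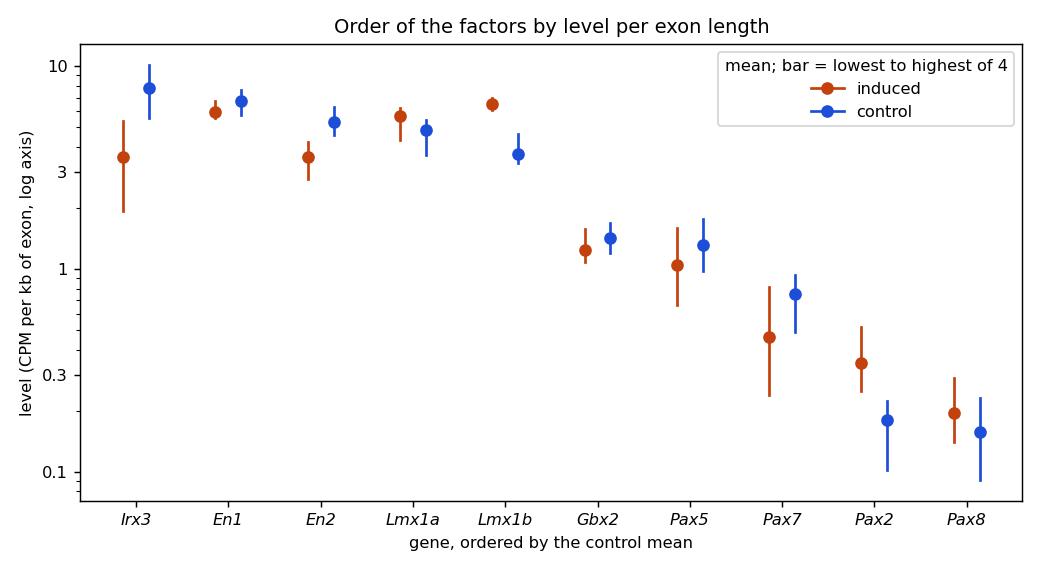
Level of each factor in CPM per kb of exon (log axis), with points for the mean and bars for the lowest to highest of the 4 libraries, induced left of control for each gene. Lmx1b averages 6.53 in the induced and 3.68 in the control libraries, and Pax8 is lowest in both groups.

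The genes whose levels followed each factor most closely were found by the Pearson correlation of log2(value + 1) over the 8 libraries, among 14867 genes with a mean of at least 1 CPM. For Lmx1b they were Fosl2 (r = 0.991), an AP-1 factor, and Grhl2 (r = 0.990), an epithelial factor, and for Irx3 Vtn (r = 0.989), which encodes vitronectin, and Wnt7b (r = 0.984). For En2 they were Katnal2 (r = 0.986) and 1810043G02Rik (r = 0.980), and for En1 Bloc1s5 (r = 0.980) and Ube2e3 (r = 0.972). For Pax5 they were Scube1 (r = 0.991) and Fndc3c1 (r = 0.985), and for Lmx1a Cat (r = 0.976) and Lbh (r = 0.962). Pax7 was closest to Lrrc56 (r = 0.973) and Ccar2 (r = 0.966), Gbx2 to Ei24 (r = 0.961) and Bloc1s5 (r = 0.951), Pax8 to RP23-162M13.9 (r = 0.953) and Sulf2 (r = 0.950), and Pax2 to Slc17a7 (r = 0.924) and Cd34 (r = 0.923). Each is the highest of many values over 8 points that share libraries and depth, and is given without a test.

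Other genes of the same families and regions were taken from lists chosen with earlier results of these data known. Beside the counts for these and all further lists, 4.55% of all genes were called higher and 2.26% lower. The median log2 fold change over all genes was 0.03, and no list was tested as a set. Of the 5 other Iroquois genes, 1 fell and none rose, with a median log2 fold change of -0.61. Irx2 fell to 15.7 ± 2.98 CPM in the induced libraries, against 24.1 ± 1.53 CPM in the controls (SD, n = 4 each; limma adjusted p = 0.020), a call lost in 3 of 8 analyses that left out 1 library. Irx5, the neighbour of Irx3 in the Iroquois cluster, was at 7.24 ± 2.65 CPM in the induced and 12.6 ± 2.28 CPM in the control libraries (limma adjusted p = 0.061). Irx1 was at 11.5 ± 4.12 and 17.2 ± 4.20 CPM in induced and control libraries (limma adjusted p = 0.16). Irx4 and Irx6 went the other way, with log2 fold changes of 1.05 and 0.13 (limma adjusted p = 0.13 and 0.83). Both were under 2 CPM on average in both groups. Of the other Pax genes, Pax3, Pax6 and Pax9 were in the table and none passed the test (limma adjusted p = 0.27, 0.23 and 0.58), all with fold changes below 0. Pax3 was at 11.8 ± 5.28 CPM in the induced and 16.9 ± 4.47 CPM in the control libraries.

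Of 9 other LIM-homeodomain genes and their Ldb cofactors in the table, 4 rose and 1 fell, with a median log2 fold change of 0.44. Lhx2, a selector of the cortical primordium, rose to 11.7 ± 1.01 CPM in the induced libraries, against 5.45 ± 0.93 CPM in the controls (SD, n = 4 each; limma adjusted p = 0.0028). Its relative Lhx9 rose to 12.7 ± 2.14 CPM, against 5.94 ± 0.88 CPM in the controls (limma adjusted p = 0.0043). Lhx1 and Lhx4 rose with limma adjusted p values of 0.023 and 0.041, on log2 fold changes of 0.63 and 1.205. Lhx2 and Lhx9 kept their calls without any 1 library, whereas Lhx1 lost its call in 4 and Lhx4 in 6 of the 8 such analyses. The cofactor Ldb2, named after its values were seen, fell to 40.6 ± 4.66 CPM in the induced libraries, against 60.6 ± 7.80 CPM in the controls (limma adjusted p = 0.016), and lost its call in 1 of the 8.

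Of 18 genes of the isthmic organizer and its signals in the table, 1 rose and 1 fell, with a median log2 fold change of 0.21. Otx2, which opposes Gbx2 from the midbrain side, fell to 160.8 ± 5.10 CPM in the induced libraries, against 218.5 ± 14.7 CPM in the controls (log2 fold change -0.44 ± 0.07, limma adjusted p = 0.0055). Spry4, a feedback inhibitor downstream of Fgf8, rose to 41.3 ± 3.58 CPM in the induced libraries, against 20.5 ± 3.75 CPM in the controls (limma adjusted p = 0.0025). Both calls held without any 1 library. The organizer ligands themselves did not pass. Fgf15 was at 27.2 ± 13.7 CPM in the induced and 53.1 ± 8.64 CPM in the control libraries (limma adjusted p = 0.053). Fgf17 and Fgf18 had log2 fold changes of 0.56 and 0.73 (limma adjusted p = 0.17 and 0.074). Fgf8 was at 8.47 ± 2.04 CPM in the induced and 5.19 ± 0.92 CPM in the control libraries (limma adjusted p = 0.074), and Wnt1 at 16.9 ± 4.03 and 22.4 ± 3.82 CPM in induced and control libraries (limma adjusted p = 0.17).

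Of 10 genes of the midbrain dopaminergic lineage in the table, 1 rose and 1 fell, both near the threshold, with a median log2 fold change of -0.06. Foxa1, a factor of the floor plate, was lower in the induced libraries at 15.7 ± 4.10 CPM, against 24.3 ± 3.29 CPM in the controls (limma adjusted p = 0.048). Nr4a2, required for dopaminergic neurons, was higher in the induced libraries at 7.88 ± 0.45 CPM, against 5.71 ± 0.41 CPM in the controls (limma adjusted p = 0.0499). Foxa1 lost its call in 5 and Nr4a2 in 7 of the 8 analyses that left out 1 library. Th, the rate-limiting enzyme of dopamine synthesis, was at 6.10 ± 2.83 CPM in the induced and 3.09 ± 0.77 CPM in the control libraries (limma adjusted p = 0.12). Of 11 hindbrain and raphe genes in the table only Barhl1 passed, higher in the induced libraries at a limma adjusted p of 0.028, and of 8 roof plate and dorsal midline genes only Zic1, lower at 0.049. Barhl1 lost its call in 5 and Zic1 in 6 of the 8 analyses.

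**Figure D5:**
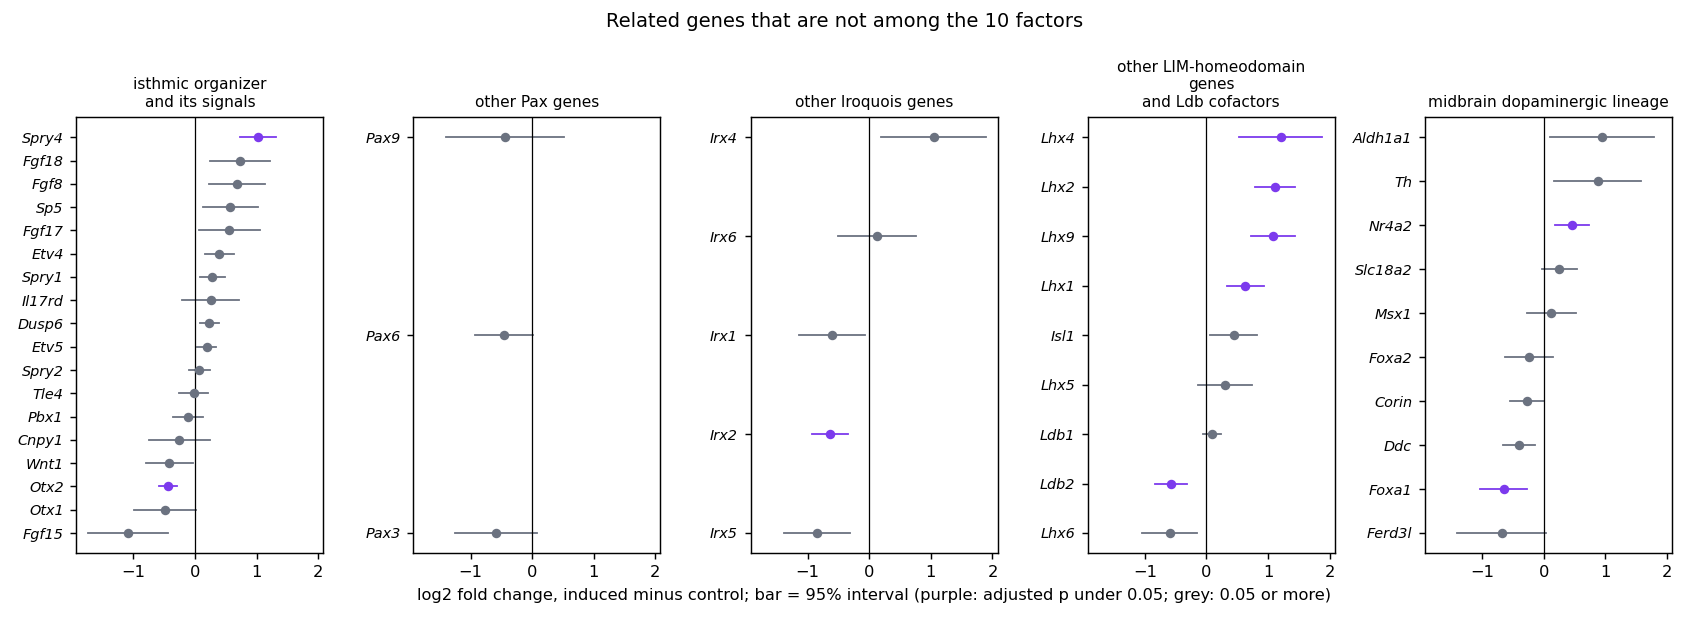
Log2 fold change, induced minus control, with 95% intervals from limma, for genes of 5 lists related to the 10 factors, in purple where the adjusted p was under 0.05. Lhx2 and Lhx9 lie at 1.11 and 1.08, Otx2 at -0.44 and Irx2 at -0.64.

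Markers of the cell types that these cultures can hold also moved. Among 8 neural progenitor and neuron markers, 3 progenitor genes fell and 2 neuronal genes rose. The summed level of the 8 was 1513 to 1841 CPM in the induced and 1403 to 1797 CPM in the control libraries. That sum mixes genes that fell with genes that rose, so its overlap does not show an unchanged neural content. Sox1 fell to 26.2 ± 9.07 CPM in the induced libraries, against 44.5 ± 6.27 CPM in the controls (limma adjusted p = 0.045, lost in 5 of 8 analyses without 1 library). Sox3 and Nes fell with limma adjusted p values of 0.015 and 0.028. Sox3 lost its call in 2 of the 8 such analyses, which are not given for Nes. Tubb3 and Dcx rose with limma adjusted p values of 0.0031 and 0.0042. Among 8 pluripotency markers Nanog, Klf4, Esrrb and Zfp42 rose and Tdgf1 fell. The summed level of the 8 was 1856 to 2199 CPM in the induced and 1983 to 2225 CPM in the control libraries, again a mix of both directions. Nanog and Klf4 kept their calls without any 1 library, whereas Esrrb lost its call in 3 and Zfp42 in 5 of the 8 such analyses. None of 7 fibroblast markers passed the test (limma), with summed levels of 555 to 672 CPM in the induced and 512 to 660 CPM in the control libraries. The part of these markers in the changes of Lmx1b and Irx3 was not tested.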

How the data were processed

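RNA from 8 cultures was sequenced from stranded poly(A) libraries, per the labels' protocols. Tools named for the authors' processing are edgeR (3.20.1), HTSeq (0.9.1) and STAR (2.5.3a), with build mm10, per the submitters' processing notes; the step each served is not given in the sources used here. The deposited expression values are a score, not raw counts: reads scaled to about 20 M per library and rounded up. This was read from the nonzero values, with the largest left out. By library, 99.66% to 99.93% of these sat on multiples of 1 step per library (1.33 to 2.12). There, rounding up gave exactly the deposited number. Division by the step gave the reads of every gene, the largest values included. Decimal commas had become column breaks, so each line has 36 cells for 24 names in the header. Every one of the 14954 lines was read by matching its values to its deposited CPM cells, 1 of them with its values shifted. The authors' own test statistics were left unused.

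Genes were tested with limma (3.58.1, R 4.3.3), using log2(value + 1) and a variance trend and neither covariate nor filter (lowest mean value 15.1), tested on simulated data. CPM is the value over its library's total. Fold changes on this scale understate those of genes with few reads. The edgeR test planned for raw counts was not used. Coordinates and exon lengths are from GENCODE M21 and promoters from RefSeq, both GRCm38 (mm10). The members and lists were chosen with earlier results of these data known. Named were the 10 factors, Bcl6, up to 4 called genes per list, and the 2 genes most like each factor. The 5 ratios between related factors and the transcripts next to the factors were added after the values were seen, and so were the list genes named without a call, with Ldb2, Nes and Tdgf1.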

Additional observations from a re-analysis of the deposited data

Results flagged for a closer look

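In each group of 4, a factor's highest or lowest library was set against its nearest neighbour, and 3 of 20 such groups had a library far from the others (chance flags about 1 in 20). Lmx1a was low in induced library 3, at 14.6 CPM, and in control 3, at 12.3 CPM. Without induced library 3 its log2 fold change was 0.37, and without control 3 it was 0.10. Lmx1b was high in control 4, at 22.6 CPM, and its log2 fold change without that library was 0.95.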

How the results depend on the processing

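None of 176 fold changes of the 10 factors under alternatives changed direction, 163 kept their side of the threshold, and the cause of the other shifts was not tested. The genes called over the whole table numbered 2507 with array weights, 2068 with the trend on transcript length and GC content taken off, and 308 to 1697 without 1 library. The factors called numbered 4 with array weights (Lmx1b, Irx3, En2 and Pax2), 1 without the variance trend (Lmx1b), and 1 to 3 without 1 library. The log2 fold change of Irx3 was -1.19 without the variance trend, where its call was lost (limma adjusted p = 0.075), and -1.41 to -0.93 without 1 library. En2 was called at -0.63 with median-of-ratios scaling, -0.64 with upper quartile scaling, -0.59 with array weights, -0.61 with voom on the recovered reads and -0.64 after the length and GC correction. Without 1 library En2 ranged from -0.69 to -0.49. Pax2 was called at 0.98 with array weights. A minimum mean value of 100 left out Gbx2, Pax2, Pax7 and Pax8. Same-numbered libraries deviated from their group means with correlations of 0.03, 0.01, -0.03 and 0.37 over 11869 genes, so the numbers were not taken to pair them. A replicate block gave 827 calls over all genes and called the same 2 factors. Depth limits Pax2, Pax8, Gbx2 and Pax7 most, which had 51 reads or fewer in every library.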

Other observations

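Of 3 B cell genes in the table, Cd79b and Ebf1 rose and Blnk did not pass the test (limma adjusted p = 0.85). Over all genes, 4.55% were called higher and 2.26% lower. Ebf1, a factor that acts with Pax5 in B cells and is also expressed in neurons, had 48.4, 40.7, 37.4 and 42.8 CPM in the 4 induced libraries, against 24.8, 32.0, 28.7 and 32.1 CPM in the 4 controls (limma adjusted p = 0.020). Cd79b, a chain of the B cell receptor complex, lay between 1.40 and 1.85 CPM in the induced libraries, against 0.55 to 0.85 CPM in the controls (limma adjusted p = 0.019), on 14 to 23 reads in the induced and 5 to 8 reads in the control libraries. Ebf1 lost its call in 2 and Cd79b in 3 of 8 analyses that left out 1 library.

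Of 6 neural crest genes in the table, Tfap2a and Tfap2b rose and Sox9 fell. Tfap2b, a crest and border factor, rose to 55.3 ± 9.51 CPM in the induced libraries, against 30.02 ± 4.44 CPM in the controls (SD, n = 4 each; limma adjusted p = 0.0051), and kept its call without any 1 library. Its relative Tfap2a was at 7.42 ± 0.86 CPM in the induced and 5.11 ± 0.33 CPM in the control libraries, and lost its call in 7 of the 8 analyses that left out 1 library and in 4 of 10 other alternatives. Sox9, which also marks radial glia, fell to 8.21 ± 2.13 CPM in the induced libraries, against 16.1 ± 2.59 CPM in the controls (limma adjusted p = 0.014), and lost its call in 3 of the 8 analyses. Of 10 genes of the kidney, ear and thyroid primordia, tissues that share Pax2 and Pax8, only Lhx1 passed, as above. In the skeletal muscle list only Des was in the table, and it did not pass.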
